A study of Homo sapiens with 12 samples.

Results

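The genes described here encode the replicative DNA helicase and the factors that place it on chromosomes and switch it on: MCM2, MCM3, MCM4, MCM5, MCM6, MCM7, MCM10, CDC6, CDT1 and CDC45. They were found by their gene symbol, and all 10 were listed in both deposited tables, among 11070 genes for 23132/87, 11554 for SW48 and 10252 shared by both. The established human line 23132/87 derives from a gastric adenocarcinoma and the established human line SW48 from a colorectal cancer, and both are labelled as wild type. For 48 h, cultures were kept with myricone C at 10 µM, a neolignan of the nutmeg tree Myristica fragrans by the series title, or with 0.1% DMSO as vehicle. Each of the 4 groups had 3 libraries, labelled as biological replicates. The labels do not say how the cultures were separated, so p-values measure the spread between these libraries. Expression is the authors' deposited signal, whose values look like FPKM or TPM, that is, corrected for gene length and library size.

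Replication of a chromosome begins with licensing. In G1 phase the origin recognition complex (ORC), CDC6 and CDT1 load MCM2 to MCM7 onto DNA as an inactive ring-shaped helicase, and geminin and the ubiquitin ligases of CDT1 block further loading once S phase has begun. Loaded rings become active when the kinases CDK and DBF4-dependent CDC7 bring CDC45 and the GINS complex to them, a step that also needs MCM10. Transcription of many of these genes is known to depend on the E2F family, which RB proteins hold in check, and their levels are high in proliferating cells and low in resting ones.

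Promoter sequences of 5 of the genes are shown because the genes share, or lack, 4 strings of letters of the E2F type, while their transcripts responded differently. RefSeq windows on GRCh38.p14, of 250 bases before to 50 bases after a transcript start, were matched for 8 of the 10 genes, in 12 windows. Each stretch below runs 5′ to 3′ on the gene's strand from 250 bases before to 20 bases after the start. They lie at chr2:135876424-135876693 on the minus strand for MCM6, and on the plus strand at chr3:127598161-127598430 for MCM2, chr10:13161308-13161577 for MCM10, chr17:40287629-40287898 for CDC6 and chr16:88803539-88803808 for CDT1. Capitals mark matches, on either strand, to the E2F-type letters TTTCCCGC, TTTGGCGC, TTTCGCGC and TTTGCCGC, to the letters TTTGAA and TTCGAA of the cell cycle homology region (CHR), or to CCAAT.
MCM6: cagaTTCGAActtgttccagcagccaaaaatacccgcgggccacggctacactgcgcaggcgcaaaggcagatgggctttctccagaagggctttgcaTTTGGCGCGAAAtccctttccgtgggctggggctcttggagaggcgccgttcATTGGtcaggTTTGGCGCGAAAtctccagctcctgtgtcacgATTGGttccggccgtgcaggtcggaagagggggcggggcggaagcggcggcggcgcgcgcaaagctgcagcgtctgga
MCM2: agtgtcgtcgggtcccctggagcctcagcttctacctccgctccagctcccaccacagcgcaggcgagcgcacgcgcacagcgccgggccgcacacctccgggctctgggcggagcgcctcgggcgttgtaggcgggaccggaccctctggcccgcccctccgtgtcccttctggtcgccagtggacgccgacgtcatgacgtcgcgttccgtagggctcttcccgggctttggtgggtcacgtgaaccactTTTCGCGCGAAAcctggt
MCM10: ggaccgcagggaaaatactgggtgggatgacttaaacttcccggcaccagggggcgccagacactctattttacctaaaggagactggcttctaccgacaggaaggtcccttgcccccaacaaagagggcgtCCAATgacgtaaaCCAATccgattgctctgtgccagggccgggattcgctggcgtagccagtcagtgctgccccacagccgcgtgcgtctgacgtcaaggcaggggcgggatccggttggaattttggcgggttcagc
CDC6: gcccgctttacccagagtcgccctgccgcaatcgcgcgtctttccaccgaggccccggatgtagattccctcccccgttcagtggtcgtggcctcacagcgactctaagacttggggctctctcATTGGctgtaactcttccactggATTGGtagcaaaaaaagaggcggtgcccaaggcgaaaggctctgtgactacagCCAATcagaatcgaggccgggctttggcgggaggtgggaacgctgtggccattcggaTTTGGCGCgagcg
CDT1: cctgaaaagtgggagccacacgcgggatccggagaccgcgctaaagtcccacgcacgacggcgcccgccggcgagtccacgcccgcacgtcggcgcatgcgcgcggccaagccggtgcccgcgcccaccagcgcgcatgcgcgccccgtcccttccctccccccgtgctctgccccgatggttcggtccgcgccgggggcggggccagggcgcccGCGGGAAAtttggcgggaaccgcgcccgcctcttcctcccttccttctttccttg

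MCM6 held 4 E2F-type matches in 2 overlapping pairs, from position -152 to -141 and from -90 to -79, counted from the start with the first transcribed base as 1. MCM2 held an overlapping pair from position 3 to 14. CDC6 held 1 such match, from 8 to 15, and CDT1 held 1, from -35 to -28. MCM10 held none of the 4 strings in its window and had 2 CCAAT matches. No window of MCM4 or MCM5, which fell in both lines, was used here. The search of member windows left out chromosome 8, where MCM4 lies. Neither promoter was searched, and the counts of matches leave both genes out. Among the 8 genes with a window, 6 had an E2F-type match in at least 1 window: MCM2, MCM3, MCM6, MCM7, CDC6 and CDT1. The same letters were in 3.31% of all 35116 RefSeq windows of this length and in 5.09% of the 14112 windows of genes listed in either table. CCAAT was found in 6 of the 8 genes and in 34.6% of all windows, and the CHR letters in 1 of the 8 (MCM6) and in 16.4% of all windows. A match is a description of letters and not a bound site, and E2F proteins are known to bind other spellings that were not searched for. Of the genes with any of the 4 strings, MCM2, MCM3, MCM6 and MCM7 fell in both lines, and CDC6 and CDT1 passed the test in 23132/87 and not in SW48. MCM10 and CDC45, without the 4 strings, fell in both. The close spelling TTTGGCGGG, which was not searched for, is in windows of MCM10 and CDC45, and also of CDC6 and CDT1. Lacking the 4 strings is therefore not the same as lacking letters of this type.

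**Figure D1:**
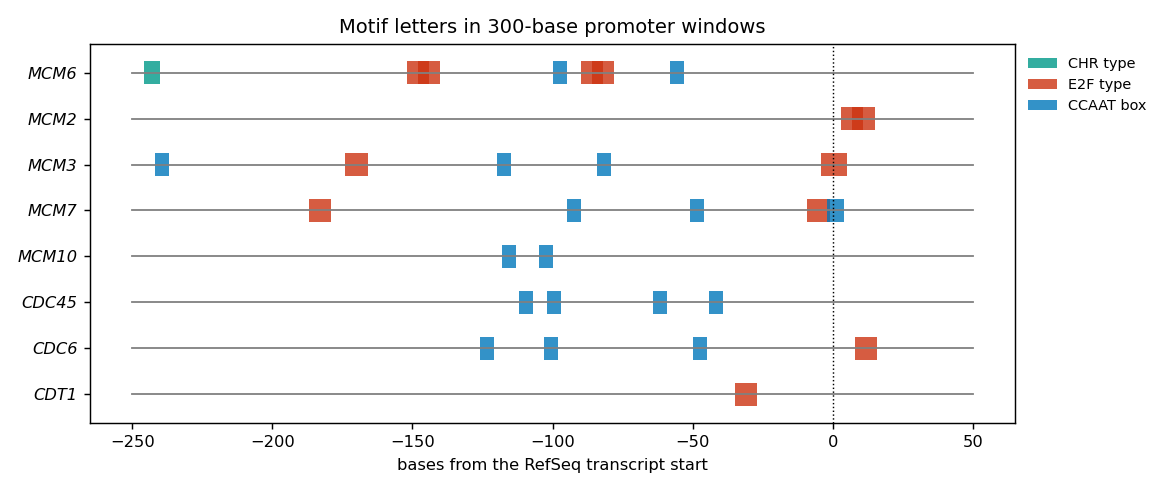
Positions of motif letters in the RefSeq promoter window of each matched gene (for MCM7 and CDC45 the first of 3 windows). The horizontal axis is the distance in bases from the transcript start (dotted line); red blocks are the 4 E2F-type strings searched for, green CHR-type letters and blue CCAAT. The E2F-type strings appear in 6 of the 8 genes and not in MCM10 or CDC45.

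The listed signal of a library summed to between 464037 and 536594, and no library duplicated another. Every treated sum lay below every vehicle sum of its line. The sums were 464037 to 506021 against 518943 to 525838 in 23132/87, and 477551 to 499845 against 509551 to 536594 in SW48. Mitochondrial pseudogenes held 13.5% to 15.3% of the signal in treated SW48 libraries and 16.6% to 18.1% in vehicle ones. In 23132/87 these shares overlapped. The treated SW48 library of replicate 1 stood apart: 5.25% of its signal came from 7SL, 7SK and small nuclear RNA, against 0.0477% to 0.201% in the other SW48 libraries, so SW48 results are also given without it. The tables give no read counts, so the depth is unknown, and every listed gene had a signal of at least 1 in all 6 libraries of its line. Of the epithelial markers EPCAM, KRT8, KRT18, KRT19, CDH1 and VIL1, 6 of 6 were listed in 23132/87 and 5 of 6 in SW48 (not VIL1). Their summed signal lay between 7836 and 10430 in vehicle libraries of 23132/87 and between 2773 and 3842 in treated ones. In SW48 it lay between 1018 and 1790 in vehicle and between 2785 and 3956 with myricone C. These sums are mostly keratin signal: KRT8 and KRT18 had vehicle means of 4558 and 3049 in 23132/87. By the test described below, 5 of these genes fell in 23132/87 and CDH1 rose (0.56). In SW48 4 rose, and EPCAM, at -0.27, did not pass. Of 7 gastric markers TFF1 was listed in 23132/87, where its signal was lower with myricone C (-0.85). Of colorectal markers, CDX2 and CDH17 were listed in both lines, LGR5 in SW48 and CDX1 and MUC2 in neither. In SW48 CDX2 fell by 1.47 and LGR5 by 0.76 on the log2 scale. Of 6 leukocyte markers CD68, which macrophages and also other cells express, was listed in 23132/87, where it rose by 1.22, and none was listed in SW48. The pan-leukocyte gene PTPRC was listed in neither line. The part of these shifts in the results below was not tested. In bulk RNA, fewer cells in a given cell cycle phase and less RNA per cell cannot be told apart.

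All 10 genes fell in 23132/87 cells, and 8 of the 10 fell in SW48 cells, where the loading factors CDC6 and CDT1 did not pass the test. A fall means a lower mean with myricone C and an adjusted p under 0.05 in limma over all listed genes. By that rule 46.5% of genes were called in 23132/87, where 23.2% fell and 23.3% rose. In SW48 29.3% were called, 19.2% fell and 10.1% rose. Higher genes made up 34.6% of the SW48 calls, and 46.2% of them under quantile normalization. On the log2(signal + 1) scale the median change of the 10 genes was -2.00 in 23132/87, where the median over all genes was 0.01. In SW48 it was -0.76, beside -0.08 over all genes. Treated and vehicle libraries did not overlap for 9 of the 10 genes in 23132/87 and for 8 in SW48. Complete separation with treated libraries lower was found for 27.9% of all genes in 23132/87 and 28.4% in SW48.

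**Figure D2:**
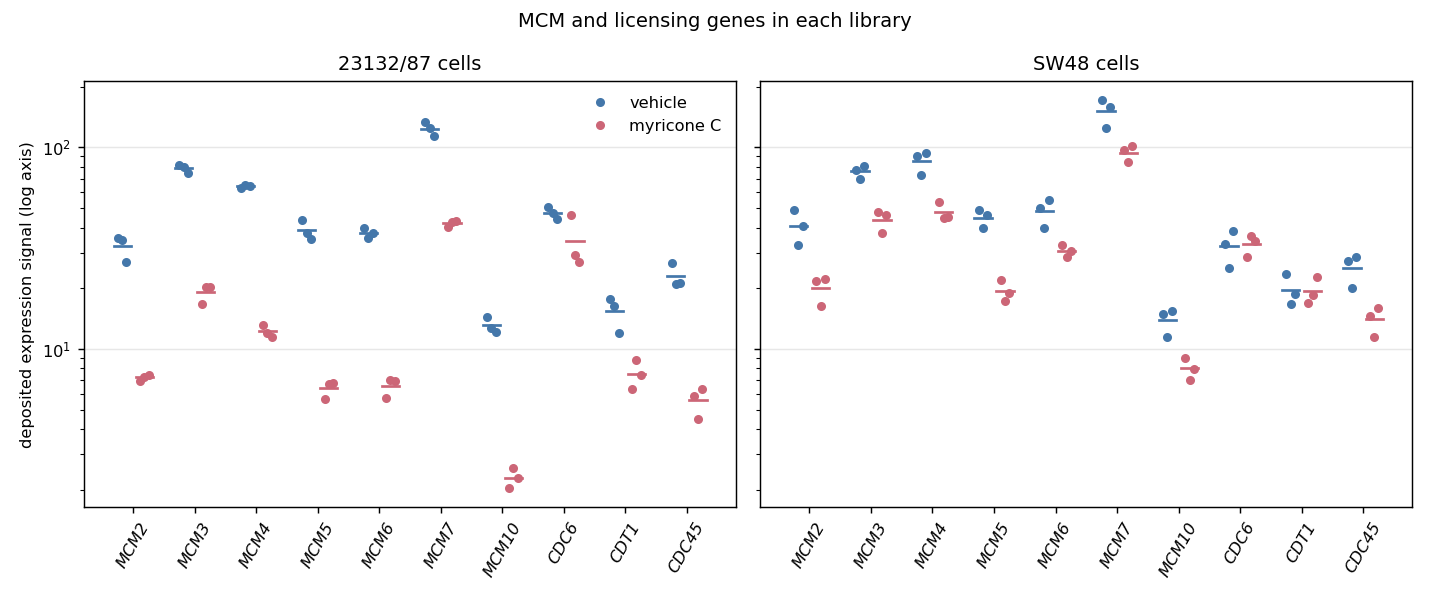
Deposited signal (vertical log axis) of each of the 10 genes in each library of 23132/87 (left) and SW48 (right), with a bar at each group mean, vehicle in blue and myricone C in red. Treated libraries lie below vehicle libraries for every gene but CDC6 in 23132/87, and for every gene but CDC6 and CDT1 in SW48.

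The hexamer subunits MCM2 to MCM7 form the ring that unwinds DNA, each contributing an ATPase domain. In 23132/87 their treated means were between 16.4% and 34.0% of the vehicle means, and in SW48 between 43.4% and 63.4%. MCM5, which forms with MCM2 the gate through which DNA enters the ring, had a signal of 43.8, 37.7 and 35.1 in the 3 vehicle libraries of 23132/87 and of 5.68, 6.70 and 6.75 in the 3 treated libraries. In SW48 it went from 49.0, 39.6 and 45.9 to 22.0, 17.3 and 19.0. Treated libraries were below every vehicle library in both lines. The log2 change was -2.43 ± 0.12 (SE, n = 3 per group, adjusted p = 1.82e-06) in 23132/87 and -1.17 ± 0.13 (adjusted p = 0.000211) in SW48. The 23132/87 value was the 4th largest fall among the genes listed there. In each line the fall of MCM5 was the largest of the 10 genes.

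MCM6 stood at 39.9, 35.5 and 37.6 in vehicle libraries of 23132/87 and at 5.70, 7.02 and 6.91 in treated ones. In SW48 its signal was 50.02, 39.7 and 55.0 in vehicle and 32.6, 28.6 and 30.5 with myricone C. The gene fell by 2.36 ± 0.11 in 23132/87 (adjusted p = 1.63e-06) and by 0.63 ± 0.14 in SW48 (adjusted p = 0.00563), on the log2 scale. By these values it had the second largest fall of the 6 subunits in 23132/87 and the smallest in SW48, an order within the errors. Without vehicle replicate 1 of SW48, MCM7 was at -0.58 and MCM6 at -0.60. Without treated replicate 1 of 23132/87, MCM4 was at -2.35 and MCM6 at -2.28. MCM4, which with MCM6 and MCM7 makes up the core that has helicase activity by itself, read 62.9, 64.7 and 64.3 in vehicle and 13.2, 12.1 and 11.4 in treated 23132/87 libraries. In SW48 it read 90.9, 72.8 and 93.7 in vehicle and 53.6, 44.6 and 45.1 with the compound. Its log2 changes were -2.30 ± 0.10 (adjusted p = 1.01e-06) in 23132/87 and -0.83 ± 0.13 (adjusted p = 0.00108) in SW48.

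MCM7 had the highest signal of the 10 genes in every group. It was 134, 124 and 113 in vehicle libraries of 23132/87 and 40.1, 42.8 and 43.1 in treated libraries. In SW48 it was 171, 124 and 158 in vehicle and 96.9, 84.3 and 101 with myricone C. MCM7 had the smallest fall of the 6 subunits in 23132/87, -1.53 ± 0.10 (adjusted p = 3.92e-06), and fell by 0.67 ± 0.14 (adjusted p = 0.00409) in SW48.

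MCM2, a main target of CDC7 that also binds histones, read 35.5, 34.7 and 27.0 in vehicle and 6.96, 7.29 and 7.47 with myricone C in 23132/87. In SW48 it read 48.9, 32.9 and 40.5 in vehicle and 21.7, 16.4 and 22.2 with the compound. The vehicle library of replicate 2 was the lowest of the 3 for MCM2 in SW48, as it was for the 9 other genes. MCM2 fell by 2.01 ± 0.13 (adjusted p = 3.92e-06) and by 0.98 ± 0.16 (adjusted p = 0.00145) in the respective lines. MCM3, which ties CDT1-bound hexamers to ORC and CDC6 during loading, went from 81.7, 79.9 and 74.6 to 16.7, 20.3 and 20.3 in 23132/87. In SW48 it went from 77.3, 69.8 and 80.6 to 47.6, 37.4 and 46.3. Its log2 changes were -1.99 ± 0.10 (adjusted p = 2.17e-06) and -0.79 ± 0.13 (adjusted p = 0.00110).

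MCM10, a DNA-binding factor unrelated to the hexamer subunits that is needed to start unwinding, had the lowest vehicle signal of the 10 genes in both lines. It was 14.4, 12.8 and 12.1 in vehicle and 2.05, 2.56 and 2.28 with myricone C in 23132/87. In SW48 it was 15.0, 11.4 and 15.5 in vehicle and 9.06, 7.01 and 7.99 with the compound. Its treated mean was 17.5% of vehicle in 23132/87 and 57.4% in SW48, both without overlap. The log2 changes were -2.10 ± 0.13 (adjusted p = 3.54e-06) and -0.73 ± 0.15 (adjusted p = 0.00498). For a gene this low the added 1 understates the fall in 23132/87, and over all alternatives its change there ran from -2.46 to -1.31.

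CDC45 joins the loaded ring together with GINS to make the active helicase. Its signal was 26.7, 21.1 and 21.3 in vehicle and 5.86, 4.50 and 6.31 with myricone C in 23132/87. It was 27.2, 20.2 and 28.5 in vehicle and 14.6, 11.5 and 15.95 with the compound in SW48. CDC45 fell without overlap in both lines, by 1.88 ± 0.15 (adjusted p = 1.13e-05) in 23132/87 and by 0.80 ± 0.16 (adjusted p = 0.00408) in SW48.

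The loading factors stood apart from the hexamer. CDC6, the ATPase that joins ORC at the origin, had a signal of 50.8, 47.4 and 44.3 in vehicle libraries of 23132/87 and of 46.2, 29.2 and 26.9 in treated libraries. The treated library of replicate 1 lay within the vehicle range, and the other two lay below it. The log2 change was -0.50 ± 0.18 (adjusted p = 0.0389), the smallest of the 10 genes in this line. This call was lost (adjusted p up to 0.130) without any 1 of the vehicle libraries or without treated replicate 2 or 3, and also under quantile normalization, under rescaling without the small RNAs and mitochondrial pseudogenes, and in limma without a trend. Without treated replicate 1 the change was -0.74. In SW48 CDC6 read 33.1, 25.1 and 38.5 in vehicle and 28.6, 36.4 and 34.5 with myricone C. These groups overlapped, and the change of 0.05 ± 0.16 had a 95% interval from -0.30 to 0.41 (adjusted p = 0.830).

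CDT1 escorts the MCM hexamer to CDC6 and ORC and is destroyed in S phase. It read 17.7, 16.3 and 12.1 in vehicle and 6.29, 8.80 and 7.42 with myricone C in 23132/87, without overlap. There it fell by 0.94 ± 0.16 (adjusted p = 0.00128), to 48.8% of the vehicle mean. In SW48 it read 23.4, 16.8 and 18.7 in vehicle and 16.9, 18.5 and 22.7 with the compound. The SW48 groups lay over the same range, and the change was -0.02 ± 0.16, with a 95% interval from -0.36 to 0.32 (adjusted p = 0.948). That interval leaves out a fall of the size that any other member but CDC6 had in SW48. The sign of the CDT1 value in SW48 was positive without treated replicate 1 (0.07) and under all 3 other scalings.

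Leaving out the treated SW48 library that stood apart left 8 of the 10 genes fallen in SW48. The hexamer changes without it were -1.04 for MCM2, -0.85 for MCM3, -0.91 for MCM4, -1.26 for MCM5, -0.68 for MCM6 and -0.69 for MCM7. MCM10 was at -0.81, CDC45 at -0.84 and CDC6 at 0.15.

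The fall was larger in 23132/87 than in SW48 for 9 of the 10 genes. The difference, taken as the SW48 change minus the 23132/87 change and tested as the line-by-treatment term over all 12 libraries, was called for 12.8% of the 10252 shared genes and was called as positive for 5.34% and as negative for 7.43%. The median difference was 1.14 for the 10 genes and -0.09 over all shared genes. The 2 tables were filtered and normalized separately, so levels are compared within a line and the lines through their changes. MCM6 had the largest difference of the 10 genes, 1.73 ± 0.18 (95% interval 1.35 to 2.11, adjusted p = 0.000101), the 38th highest of all shared genes. MCM4 differed by 1.47 ± 0.16 (adjusted p = 0.000130) and MCM10 by 1.37 ± 0.19 (adjusted p = 0.000663). The MCM10 difference depended on the pseudocount and ran from 0.77 to 1.67 over the alternatives.

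MCM5 and MCM3 differed by 1.27 ± 0.18 and 1.21 ± 0.16, CDC45 and MCM2 by 1.07 ± 0.23 and 1.03 ± 0.22, and MCM7 by 0.86 ± 0.17, with adjusted p-values from 0.000506 to 0.00782. For CDT1 the difference was 0.92 ± 0.24 (adjusted p = 0.0199). It missed the threshold without vehicle replicate 1 (adjusted p = 0.0507) or 2 (0.0511) of 23132/87 or without vehicle replicate 2 of SW48 (0.0567). CDC6 was the gene not called, with a difference of 0.56 ± 0.26 (95% interval 0.00 to 1.11, adjusted p = 0.173). Without the high treated replicate 1 of 23132/87 its difference was 0.79 and passed (adjusted p = 0.0297). Without the treated SW48 library that stood apart, 9 of the 10 genes still differed, from 0.84 for MCM7 to 1.68 for MCM6.

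**Figure D3:**
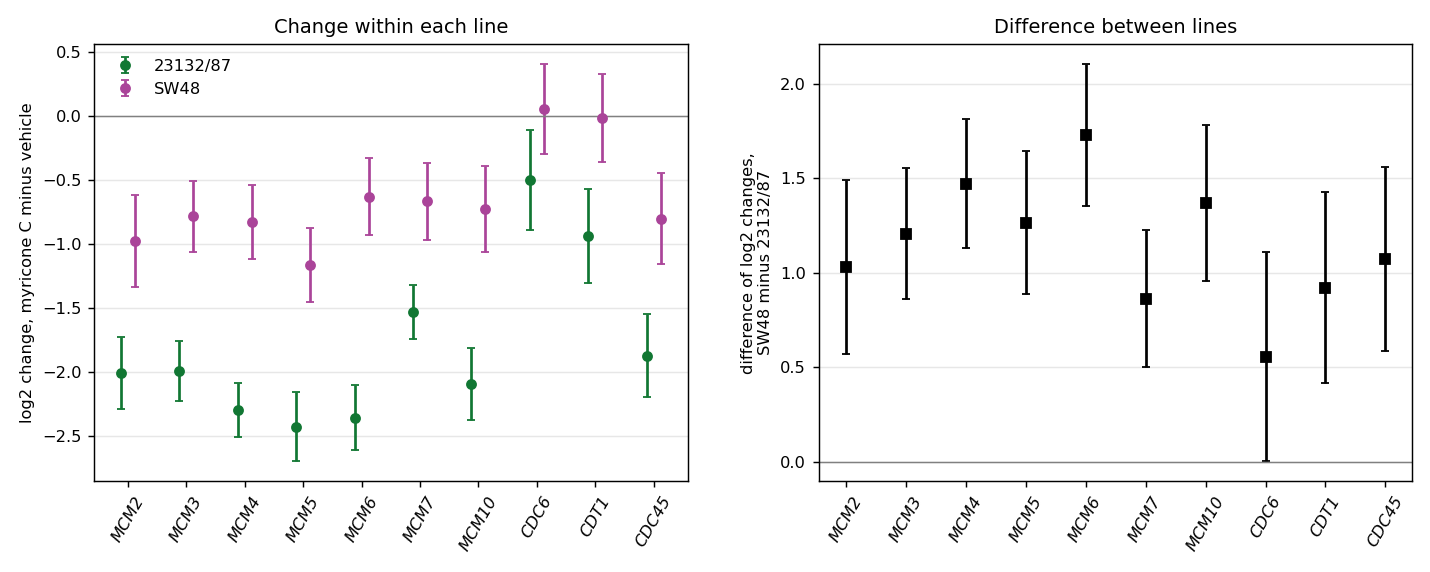
Left, log2 change of each gene with its 95% interval in 23132/87 (green) and SW48 (purple), n = 3 per group. Right, the difference of these changes with its 95% interval, where a positive value is a larger fall in 23132/87. MCM6 has the largest difference, 1.73, and the interval of CDC6 reaches down to 0.00.

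Because the 6 subunits assemble in equal number, their signals were also set against each other within each library. These shares rest on a signal that resembles a per-length value, and they are given as descriptions. Summed over MCM2 to MCM7, the signal went from 375 ± 22.8 (SD, n = 3) in vehicle to 93.4 ± 4.43 with myricone C in 23132/87. In SW48 the sum went from 447 ± 58.7 to 256 ± 24.1. The subunits did not keep their proportions. MCM7 made up 32.2% to 33.6% of the sum in vehicle libraries of 23132/87 and 44.5% to 45.4% in treated ones, a gain of 12.0 percentage points in the mean. In SW48 its share was 32.8% to 35.1% in vehicle and 35.3% to 38.3% in treated libraries, a gain of 3.08 points. Treated libraries had the higher MCM7 share without overlap in both lines. The shares restate the subunit changes given above and are no separate result. The MCM5 share moved the other way in both lines, from a mean of 10.3% to 6.81% in 23132/87 and from 10.1% to 7.59% in SW48.

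The shares of MCM4 and MCM6 were lower with myricone C in 23132/87, and in SW48 the groups overlapped for both. In 23132/87 the MCM4 share had a mean of 17.1% in vehicle and 13.1% with the compound, and the MCM6 share 10.0% and 6.99%. In SW48 the MCM4 share was 19.2% in vehicle and 18.7% with the compound, and that of MCM6 10.8% and 12.0%. The subunit with the highest signal stood 3.85 ± 0.32 times above the lowest in vehicle libraries of 23132/87 and 6.61 ± 0.39 times with myricone C. In SW48 this ratio was 3.73 ± 0.21 in vehicle and 4.98 ± 0.46 with the compound. The subunit signals were thus further apart in every treated library than in any vehicle library of the same line.

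Relative to the mean of the 6 subunits, the loading factors were higher in treated cells of both lines. Any gene that fell by less than the subunits would be higher by this measure. The ratios therefore restate the changes given above and are no separate result about CDC6 or CDT1. The CDC6 ratio was 0.755 to 0.766 in vehicle libraries of 23132/87 and 1.69 to 3.14 in treated ones. In SW48 it was 0.397 to 0.487 in vehicle and 0.625 to 0.955 with myricone C. Both lines showed the same order for CDT1. Its ratio was 0.206 to 0.267 in vehicle and 0.428 to 0.549 with the compound in 23132/87. In SW48 it was 0.237 to 0.289 in vehicle and 0.369 to 0.516 in treated libraries. None of these 4 pairs of groups overlapped. Against geminin (GMNN), its inhibitor, CDT1 stood at 0.419 ± 0.108 in vehicle and 0.469 ± 0.151 with myricone C in 23132/87, where the groups overlapped. In SW48 the CDT1 to GMNN ratio was 0.757 to 1.19 in vehicle and 1.55 to 2.24 in treated libraries. There GMNN fell by 0.96 while CDT1 was at -0.02, so this ratio follows the fall of GMNN.

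**Figure D4:**
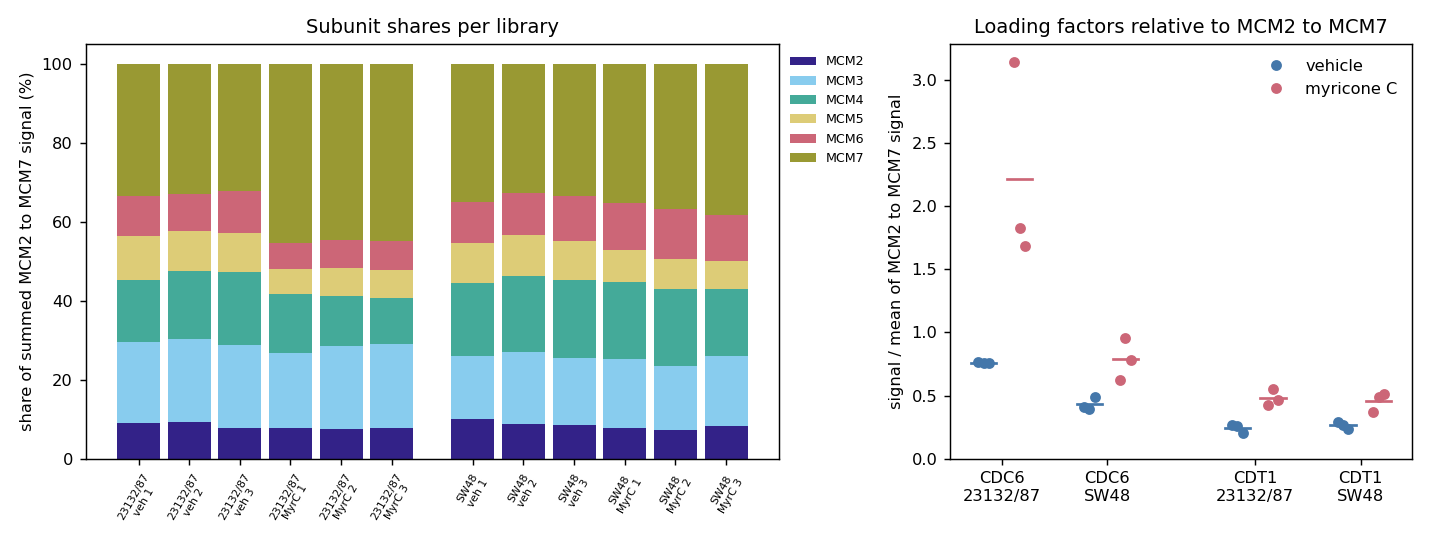
Left, share of each subunit in the summed MCM2 to MCM7 signal of each library, in percent. Right, signal of CDC6 and CDT1 divided by the mean signal of MCM2 to MCM7 in the same library, vehicle in blue and myricone C in red, with a bar at each mean. The MCM7 share is 44.5% to 45.4% in treated 23132/87 libraries against 32.2% to 33.6% in vehicle, and both ratios are higher in treated libraries of both lines.

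ORC marks origins before loading, and 2 of its 6 subunit genes fell in each line. Counts for this and the following lists stand beside shares over all genes of 23.2% fallen in 23132/87 and 19.2% in SW48. For the difference between lines the share called was 12.8% of shared genes. In a list as short as this, 2 calls are not far from those shares and are not read as a result about ORC. ORC1, the subunit whose level is known to follow the cell cycle, fell by 1.42 ± 0.14 in 23132/87 (adjusted p = 4.56e-05) and by 0.71 ± 0.16 in SW48 (adjusted p = 0.00800). ORC6 fell by 1.38 ± 0.10 and 0.64 ± 0.15. Both differed between the lines, by 0.72 (adjusted p = 0.0412) and 0.74 (adjusted p = 0.0183). ORC2, ORC3, ORC4 and ORC5 did not pass the test in either line, with changes from -0.20 to 0.32 in 23132/87 and from -0.06 to 0.26 in SW48. The median over the 6 was -0.12 in 23132/87 and 0.05 in SW48.

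Of 12 genes that control licensing, 9 fell in 23132/87 and 7 in SW48, with medians of -0.85 and -0.72, and none rose. CCNE1, the cyclin E that with CDK2 drives entry into S phase, fell by 2.48 ± 0.14 in 23132/87 and by 0.90 ± 0.17 in SW48, a difference of 1.58 (adjusted p = 0.000653). CCNE2 fell by 2.24 and 1.35 (difference 0.89, adjusted p = 0.0959). CCNA2, which encodes the cyclin of S and G2 phase, fell by 1.28 and 1.29 (difference -0.01, adjusted p = 0.979). The other genes of this list that are named here were picked after their values were seen, 3 of them (GMNN, DTL and SKP2) for their role. GMNN fell by 1.13 ± 0.13 and 0.96 ± 0.12, from a mean signal of 37.2 to 16.6 in 23132/87 and from 21.9 to 10.7 in SW48. DTL and SKP2 encode substrate receptors of the ligases that mark CDT1 for destruction. DTL fell by 1.71 in 23132/87 and 0.76 in SW48 (difference 0.95, adjusted p = 0.00658), whereas SKP2 fell by 1.15 and 1.13 (difference 0.02, adjusted p = 0.969). The 3 genes that did not pass in 23132/87 were CUL4A (0.06), CUL4B (0.05) and KAT7 (0.28), and they passed in neither line. In SW48 DDB1 (-0.23, adjusted p = 0.125) and LRWD1 (-0.07) did not pass either. Of the 12 genes, 2 (CCNE1 and DTL) differed between lines, not far from the 12.8% called over all shared genes.

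Genes that act with CDC45 in firing fell in most cases: 11 of 12 listed in 23132/87 and 10 of 13 in SW48, with medians of -1.06 and -0.65. GINS1, a subunit of the complex that joins CDC45 on the ring, fell by 1.93 ± 0.10 and 1.00 ± 0.13 (difference 0.93, adjusted p = 0.00161). GINS2 was listed in SW48, where it fell by 1.40 ± 0.18, and was not listed in 23132/87. RECQL4, a helicase that takes part in initiation, fell by 1.70 in 23132/87, while its SW48 value of -0.36 did not pass (adjusted p = 0.0924), and the difference of 1.34 was called (adjusted p = 0.00172). CDC7, the kinase of the MCM ring, fell by 1.06 and 1.07 (difference -0.01, adjusted p = 0.972). Of 12 genes of this list in both tables, 4 differed between lines, all with the larger fall in 23132/87: GINS1, RECQL4 and, named after their values were seen, DONSON (0.56) and WDHD1 (0.63).

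Of 5 other genes named after MCM, 4 were listed (not MCMDC2). Of these 3 fell in 23132/87 and 1 in SW48, with medians of -0.39 and -0.21. The SW48 count is near the 19.2% of all genes that fell there. MCM8 and MCM9 form a helicase of recombination repair. MCM8 fell by 1.19 ± 0.15 in 23132/87 and 0.89 ± 0.14 in SW48, and MCM9 by 0.36 ± 0.12 in 23132/87, with an SW48 value of -0.39 (adjusted p = 0.0513). MCMBP, which binds free MCM subunits, fell by 0.41 ± 0.10 in 23132/87 and was at -0.04 in SW48 (adjusted p = 0.839). MCM3AP was at 0.06 and 0.01 and passed in neither line. No gene of this list was called for the difference between lines, where 12.8% of all shared genes were.

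Helicase unloading, in which the ligase receptor LRR1 and the segregase VCP take the ring off DNA, had 7 of 13 genes fallen in 23132/87 and 5 of 13 in SW48, with medians of -0.27 and -0.21. LRR1 fell by 1.02 in both lines, and TIMELESS, a fork protection factor, by 1.08 and 1.07. None of the 13 genes differed between the lines, which is not far from the 12.8% called over all shared genes.

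Among 20 genes of the E2F, RB and DREAM regulators, 9 of 19 listed fell and 3 rose in 23132/87, and 9 of 20 fell in SW48 with none rising. Over all genes 23.3% rose in 23132/87 and 10.1% in SW48. The medians were -0.37 and -0.33. E2F1, an activator of S phase genes, went from a mean signal of 21.8 to 3.96 in 23132/87 and from 15.8 to 9.39 in SW48. It fell by 2.20 ± 0.14 and by 0.69 ± 0.15, a difference of 1.51 (adjusted p = 0.000606). MYBL2 fell by 2.47 and 1.27 (difference 1.19, adjusted p = 0.00750), and FOXM1, an activator of mitotic genes, by 1.09 and 1.25 (difference -0.15, adjusted p = 0.594). The genes that rose in 23132/87, named after their values were seen, were LIN37 (0.85), a DREAM subunit, E2F5 (0.46), a repressor E2F, and RBL2 (0.41). RBL2 encodes p130, the RB relative of resting cells, and it differed between lines by -0.62 (adjusted p = 0.0405). RBL1, which encodes p107, fell by 1.38 in 23132/87, was at -0.32 in SW48 (adjusted p = 0.160) and differed by 1.06 (adjusted p = 0.00712).

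All 16 genes of G2 phase and mitosis fell in both lines, with medians of -1.03 in 23132/87 and -1.10 in SW48. MKI67, the proliferation marker Ki-67, fell by 1.33 and 1.12, BIRC5 (survivin) by 1.37 and 1.45, and TOP2A by 0.98 and 1.24. Of the 16, 1 gene differed between lines: CCNB2, named after its value was seen, fell by 0.35 in 23132/87 and 1.15 in SW48 (difference -0.80, adjusted p = 0.00471). The median difference over these 16 genes was -0.05, beside 1.14 over the 10 MCM and licensing genes.

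**Figure D5:**
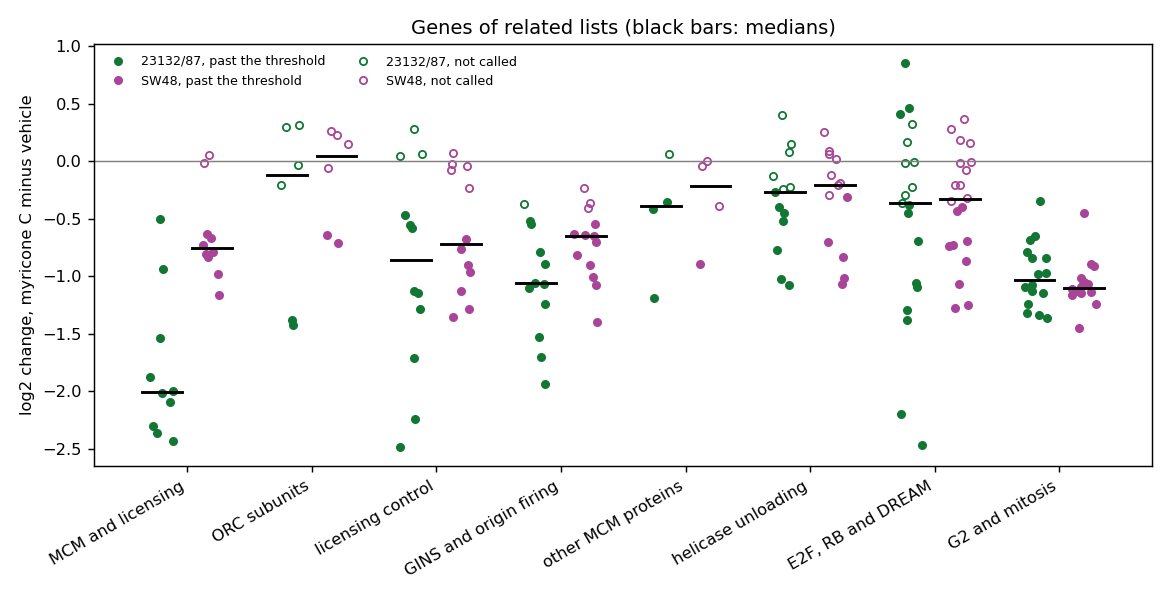
Log2 change of each gene of the MCM and licensing set and of 7 related lists in 23132/87 (green) and SW48 (purple). Filled points passed the threshold, open points did not, and black bars are medians. The MCM and licensing medians are -2.00 and -0.76, while those of G2 and mitosis are -1.03 and -1.10.

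Of the 20 nearest listed genes, 1 on each side of each member, 9 fell and 6 rose in 23132/87, where 23.2% of all genes fell and 23.3% rose. Nearest listed does not mean adjacent. CENPQ, counted as fallen in both lines, lies 2770902 bases from MCM3, while the neighbours described below lie within 23246 bases. In SW48 5 of 20 fell and 3 rose, where 19.2% of all genes fell and 10.1% rose. MCM5, at chr22:35400063-35425430 on the plus strand (GENCODE release 29, GRCh38; its longest coding transcript has 17 exons), has HMOX1 5849 bases upstream on the same strand. HMOX1, which encodes the haem-degrading stress enzyme heme oxygenase 1, rose from a mean signal of 2.13 to 51.9 in 23132/87 and from 5.45 to 89.5 in SW48. Its log2 changes were 3.97 ± 0.28 and 3.73 ± 0.27, against falls of MCM5 by 2.43 and 1.17. TPRA1, head to head with MCM2 (chr3:127598223-127622436, plus strand) and overlapping it, rose by 1.34 and 0.53, with a difference of -0.81 between lines (adjusted p = 0.0147).

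Other head-to-head neighbours gave other values. PRKDC, 2 bases from MCM4, fell by 0.92 in 23132/87 and was at -0.31 in SW48 (adjusted p = 0.0600), a difference of 0.62 (adjusted p = 0.00739). AP4M1, which overlaps MCM7 (chr7:100092728-100101940, minus strand), passed in neither line, and UFD1, 244 bases from CDC45 (chr22:19479459-19520612, plus strand), fell by 0.27 in 23132/87 (adjusted p = 0.0424) and was at -0.29 in SW48 (adjusted p = 0.0903). The library kit keeps strand, but whether the counting used it is not given in the sources used here, so overlapping genes can share reads.

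Neighbours at greater distances or on the 3′ side varied as well. COPS6, 528 bases from the end of MCM7, fell by 0.63 in 23132/87 and was at -0.11 in SW48 (difference 0.51, adjusted p = 0.0183). APRT, 81 bases from the end of CDT1 (chr16:88803213-88809258, plus strand), fell by 0.83 and 0.62, so in SW48 it fell where CDT1 did not pass. OPTN, 23246 bases from MCM10 (chr10:13161554-13211104, plus strand), rose by 1.15 in 23132/87 and was at -0.16 in SW48 (difference -1.31, adjusted p = 0.00256). On either side of CDC6 (chr17:40287633-40304657, plus strand), WIPF2 rose by 0.51 in 23132/87 and was at -0.01 in SW48 (difference -0.51, adjusted p = 0.0437), while RARA rose by 0.39 and 0.63.

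The genes most like the hexamer were ranked by Pearson's r over the 12 libraries with the mean log2 signal of MCM2 to MCM7, each centred within its line. Among 10242 genes outside the set, the first 5 were MTHFD1 (0.995), DNMT1 (0.995), TUBB (0.995), E2F1 (0.994) and PRPS2 (0.993). These r values describe points that share libraries and treatment. MTHFD1 acts in folate metabolism, DNMT1 maintains DNA methylation, TUBB is a tubulin and PRPS2 makes a nucleotide precursor. Their falls were 1.29 and 0.43 for MTHFD1, 1.56 and 0.62 for DNMT1, 1.31 and 0.62 for TUBB, and 1.59 and 0.56 for PRPS2. The mean change of the 6 hexamer subunits was -2.10 in 23132/87 and -0.84 in SW48. By the same measure MCM10 had an r of 0.998 with the hexamer and CDC45 0.984, while CDT1 had 0.842 and CDC6 0.555.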

How the data were processed

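Libraries of mRNA from 12 samples were made with the TruSeq Stranded mRNA chemistry, per the labels' protocols. The submitters' processing notes list FastQC, STAR and GRCh38. The tool that quantified genes, with its strand setting and annotation, was not given in the sources used here. For either line the authors deposited 1 table holding an expression signal for every listed gene. Its values look like FPKM or TPM, without deciding between them, and hold no counts, so a count test did not apply.

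Signal was taken as log2(signal + 1). The filter, a mean signal of 1 or more, kept every listed gene. Each line was fitted on its 6 libraries in limma 3.58.1 (R 4.3.3), using its mean-variance trend and adjusting p over all genes by Benjamini-Hochberg, with calls at an adjusted p under 0.05. The line-by-treatment term was fitted on all 12 libraries over the 10252 genes matched by Ensembl identifier. Errors of changes are moderated standard errors. Every adjusted p comes from these limma fits. They were also run on simulated data with independent noise for each gene, which cannot speak to effects shared by all genes of a library.

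The members and the gene lists were chosen with earlier results of these data known. All members are named. From each related list the 2 genes with the largest change past the threshold in each line are named, with the genes of lists of 6 or fewer, the neighbours on GENCODE 29, and the 5 genes most like the hexamer. Other names are said to have been chosen after values were seen. Promoter sequences are from RefSeq (GRCh38.p14), and protein sequences were not analysed here. The colorectal marker list is not reported here as a whole. SW48 treated columns carry other numbers than the sample titles, and the labels tie each column to its title. Alternatives were pseudocounts of 0.1 and 5, no filter, a stricter filter (a signal of 10 or more in 3 or more libraries), 3 other scalings, no trend, all 12 libraries in 1 fit, the replicate number as a block, and leaving out each library.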

Additional observations from a re-analysis of the deposited data

Results flagged for a closer look

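The results below were picked out because the change with myricone C differed between the lines in the test of that difference (limma's line-by-treatment term, adjusted p under 0.05). Values are the SW48 change minus the 23132/87 change on the log2 scale, with 3 libraries in each of the 4 groups. Of the helicase subunits MCM2 differed by 1.03, MCM3 by 1.21, MCM4 by 1.47, MCM5 by 1.27, MCM6 by 1.73 and MCM7 by 0.864. MCM10 differed by 1.37, CDC45 by 1.07 and CDT1 by 0.922. All 9 fell in 23132/87, and their SW48 values were nearer to 0.

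Genes of the related lists with the same direction of difference were ORC1 (0.715), ORC6 (0.737), CCNE1 (1.58), DTL (0.946), GINS1 (0.928), RECQL4 (1.34), DONSON (0.561), WDHD1 (0.626), E2F1 (1.51), MYBL2 (1.19) and RBL1 (1.06). RBL2 (-0.617), which rose in 23132/87, and CCNB2 (-0.802), which fell by more in SW48, had the opposite sign. Among the named nearest listed genes of the members, PRKDC (0.619) and COPS6 (0.515) had positive differences. TPRA1 (-0.81), OPTN (-1.31) and WIPF2 (-0.514), which rose in 23132/87, had negative ones. MTHFD1 (0.856), DNMT1 (0.939), TUBB (0.685) and PRPS2 (1.03), ranked by likeness to the hexamer, also differed. That ranking used the same libraries as the test.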

How the results depend on the processing

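The calls of MCM2, MCM3, MCM4, MCM5, MCM7 and CDC45 in both lines, and their differences between lines, kept direction and call under every alternative run. No filter tested the same genes. The SW48 value of CDT1 changed sign under quantile normalization (0.0473), median centring (0.0322) and rescaling (0.0502), and ran from -0.13 to 0.11 with a library left out, as that of CDC6 ran from -0.11 to 0.19. The sources give no shared culture for equal replicate numbers, and same-numbered libraries had correlations from -0.27 to 0.11 by the titles and of 0.15 and 0.27 by the SW48 column numbers, which give 2 pairs, so the number was not taken as pairing. As a replicate block it gave 4449, 2811 and 770 genes called in 23132/87, in SW48 and for the difference, against 5153, 3383 and 1309. By the SW48 column numbers, that block lost MCM6 (-0.60, adjusted p = 0.0562) and MCM10 (-0.67, adjusted p = 0.0547) and left 6 genes fallen. The stricter filter, with fewer genes tested, gave 812 genes for the difference. With each library left out, genes called ran from 3959 to 4888 in 23132/87 and from 2199 (without treated replicate 2) to 3656 in SW48, and for the difference from 831 (without SW48 vehicle replicate 2) to 1413. Members fallen then ran from 9 to 10 in 23132/87 and stayed at 8 in SW48, members differing ran from 8 to 10, and the gain of the MCM7 share from 11.7 to 12.4 points and from 2.33 to 3.84 points. With unknown depth, precision rests on 3 libraries per group.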
